A study of Saccharomyces cerevisiae with 20 samples.

Results

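The comparison sets the mean length of messenger RNA tails late after release from a pheromone arrest (75, 90 and 105 min) against their length early after release (0, 15 and 30 min) in Saccharomyces cerevisiae. It takes in 12 of the 20 libraries of the series, 6 late and 6 early, and in each period 3 libraries came from the strain lacking SET1 (set1Δ) and 3 from the wild type (WT, strain W303a). Set1 methylates lysine 4 of histone H3. All cultures grew in rich medium, both strains were held in G1 with the mating pheromone α-factor, and the washed cells were sampled every 15 min. The labels give 1 time course per strain with 1 library per time point, so the spread below is that between time points and strains, and not between cultures. Genes were kept where each of the 12 libraries held at least 20 reads with a poly(A) tail, which left 2203 of 6532 features and 89.1% of all such reads. In PAT-seq a read starts in the last part of the transcript and can run into the tail. Each read gives a count, and only a read that carries a tail also gives a tail length.

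The poly(A) tail is added to a messenger RNA in the nucleus, is bound by the protein Pab1, and is shortened in the cytoplasm by the Pan2-Pan3 and Ccr4-Not deadenylases before the cap is removed and the RNA decays. A mean tail length over the molecules of a gene depends on how many are newly made and on how far the older ones have been shortened. In yeast the Ccr4-Not complex is the main cytoplasmic deadenylase.

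The largest tail difference among genes with a mean of 100 or more poly(A) reads belonged to FUS3, the mitogen-activated kinase of the mating pathway, and its sequences are shown here because its promoter and its RNA carry recognition letters of known regulators. The promoter window, 250 bases before the start codon to 50 bases from it on, was chrII:192201-192500 on the plus strand, with the pheromone response element TGAAACA in capitals, which Ste12 binds.
FUS3 promoter: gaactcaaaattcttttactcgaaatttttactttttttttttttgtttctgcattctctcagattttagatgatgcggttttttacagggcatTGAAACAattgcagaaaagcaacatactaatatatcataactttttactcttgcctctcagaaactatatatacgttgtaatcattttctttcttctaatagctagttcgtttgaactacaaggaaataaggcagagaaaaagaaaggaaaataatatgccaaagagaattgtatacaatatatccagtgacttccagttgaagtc
Searched on both strands, TGAAACA stood in this window for 7.49% of 6007 coding genes and 6.32% of 2121 tested genes, for 16 of 26 pheromone response genes, and for 2.94% of the genes with longer tails late. The windows of GPA1 and FIG2 held no match. The RNA-binding protein Puf3, which recruits deadenylases to messages of mitochondrial proteins, recognises TGTANATA, and its letters were sought on the sense strand in the 200 bases after the stop codon. The first match is printed in capitals with the bases around it. It is given for FUS3 and for the 5 genes of the mitochondrial ribosomal protein list, drawn by gene symbol, whose tails were longer late.
FUS3: catatacataTGTACATAtgacatacgt
MRP2: gatacgcactTGTAAATAaatacatgat
MRPL36: taaacagcctTGTATATAccgcaacata
MRPS35: cattattactTGTACATAaaatattcta
MRPS16: atgtatatgtTGTATATAtgttttactt
RSM24: acggccccccTGTATATAttatgtattt
These sites lay at chrII:193573-193600 (FUS3, plus strand), chrXVI:876215-876242 (MRP2, minus strand), chrII:483851-483878 (MRPL36, minus strand), chrVII:830213-830240 (MRPS35, plus strand), chrXVI:528882-528909 (MRPS16, minus strand) and chrIV:813143-813170 (RSM24, minus strand). Sequences and coordinates come from RefSeq, assembly R64. A match describes the letters and is not shown to be a bound site.

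Tails were longer late as a whole. The median tail over genes averaged 30.0 ± 0.75 nt in the late libraries and 27.7 ± 1.08 nt in the early ones (SD, n = 6 each). The late medians ran from 29.3 to 31.1 nt and the early ones from 26.4 to 29.2 nt, so the medians did not overlap. Means weighted by reads did overlap, at 27.9 to 29.9 nt late and 25.5 to 29.0 nt early. The medians differed by 2.26 nt, with p = 0.005 in an exact two-sided permutation test within strains, the smallest p that its 400 arrangements allow. The share of reads that carried a tail moved the other way, again without overlap: it was 56.4 ± 5.29% late, with a range of 51.3 to 65.4%, and 77.2 ± 8.21% early, with a range of 69.5 to 91.7% (SD, n = 6 each; difference -20.8 points, exact permutation p = 0.005). Period and tail share therefore cannot be told apart in these 12 libraries. With tail share as a covariate 2 genes were longer and 3 shorter at an adjusted p below 0.05, and the longer ones were FUS3 (17.8 nt, limma adjusted p = 2.15e-06) and RPL3 (7.32 nt, limma adjusted p = 0.0267). Of the 3 shorter genes only 1 was also called shorter without the covariate, SED1, described below (-9.28 nt with the covariate, limma adjusted p = 0.0383). DBP2 and RPS7A lost their calls. DBP2 differed by -6.32 nt with the covariate and -6.85 nt without (limma adjusted p = 0.193 and 4.15e-05), and RPS7A by 6.49 nt and 6.51 nt (limma adjusted p = 0.0862 and 6.38e-06). MOB1, which was called in neither fit, turned from 2.34 nt without the covariate to -2.77 nt with it. These values do not speak for the other called genes. Total reads ran from 1000773 to 2413354 late and from 476565 to 1531047 early. In the set1Δ libraries SET1 averaged 8.46 CPM (read counts scaled to effective library size) late and 7.88 early, against 33.0 and 41.9 in WT. Genes that mark mating type a, such as STE2 and MFA1, were present in all 12 libraries, whereas of the α-cell genes STE3 had at most 3 reads, MF(ALPHA)1 at most 15, SAG1 at most 36 and MF(ALPHA)2 at most 78, the last in an early set1Δ library. CLB2, a G2/M cyclin gene, had at most 4 reads in any of the 12 and could not place the cells in the cycle. SWI5, a mitotic marker, averaged 28.6 CPM late and 6.41 early in WT, and 39.3 and 16.8 in set1Δ. CDC20, another, averaged 53.1 and 23.9 in WT, and 47.2 and 28.1 in set1Δ. Their late and early ranges overlapped except for CDC20 in WT. Of the arrest and G1 markers, FUS1 and FAR1 averaged less late in both strains, but their late and early ranges overlapped in each. In set1Δ the early average of FUS1 was 98.5 ± 162 CPM (SD, n = 3), from 3.75 to 286, against 15.6 to 23.6 late. For FAR1 in set1Δ it was 380 ± 580 CPM (SD, n = 3), from 39.4 to 1050, against 79.9 to 558 late. These 2 genes therefore do not separate the periods in set1Δ. CLN2 averaged 198 late and 136 early in WT, and 252 and 250 in set1Δ.

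**Figure D1:**
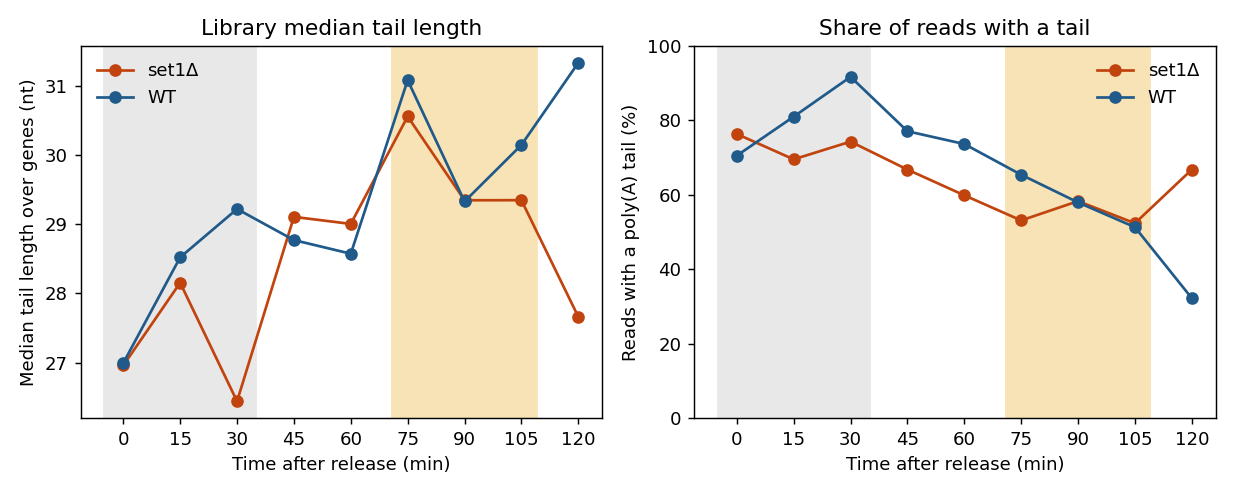
Median tail length over genes in nt (left) and the percentage of reads that carried a tail (right) by time after release in min, for set1Δ (orange) and WT (blue), 1 library per point; the early window is grey and the late window yellow. The late medians sit between 29.3 and 31.1 nt, above the early ones at 26.4 to 29.2 nt, while the late tail shares of 51.3 to 65.4% sit below the early 69.5 to 91.7%.

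To see which genes moved apart from the rest, the library median was subtracted from each tail length, and late was compared with early in 1 limma fit over the 2203 genes with strain as a covariate. At a Benjamini-Hochberg adjusted p below 0.05, 211 genes (9.58%) had longer tails late and 177 (8.03%) had shorter tails late. Here longer and shorter are relative to the median gene, which itself gained 2.05 nt: without the subtraction 662 genes (30%) were longer and 4 (0.182%) were shorter. Differences of single genes and list medians below are centred unless called raw. Of the called genes 64 longer and 64 shorter ones were not called on at least 1 of 2 other scalings, log2 of tail length or tail length divided by the library median (the ratio scale), and the named ones are pointed out below. The 4 that were shorter on the raw scale as well were DBP2, COX5A, RPL36A and TIF2. The 211 genes had a median difference of 4.73 nt after centring, and 98 of them exceeded 5 nt. The 177 genes had a median of -2.88 nt, and 6 of them exceeded 5 nt. All 6 late values lay above all 6 early values for 86 genes (3.9%) and below them for 77 (3.5%), or 7.4% in either direction. The sign was equal in both strains for all 388 called genes, which the pooled fit favours, and for 74.3% of all 2203. Genes at the read minimum, with exactly 20 reads in their lowest library, numbered 80 and had a median difference of -0.19 nt, from -5.57 to 6.12 nt. Just outside it, the 71 genes with 19 reads had a median of -0.72 nt, from -5.39 to 7.84 nt.

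**Figure D2:**
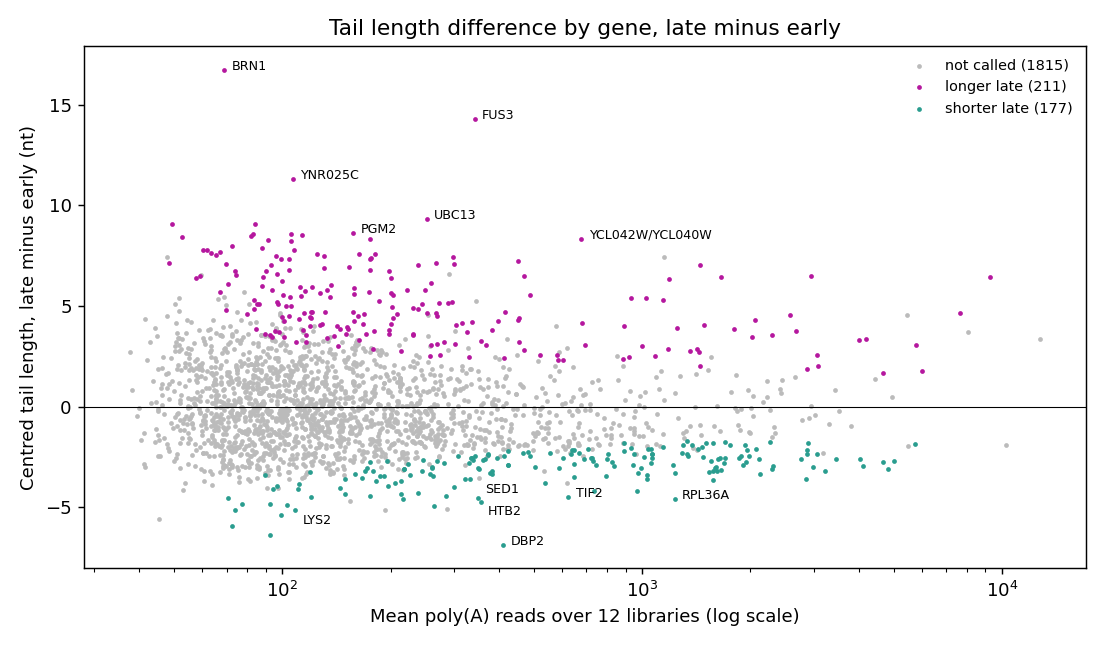
Centred tail length, late minus early, in nt (vertical axis) against the mean number of poly(A) reads per library (horizontal axis, log scale) for 2203 genes, 1 point each. The 211 genes called longer late (purple) reach 16.7 nt and the 177 called shorter late (green) reach -6.85 nt, with a median of 174 poly(A) reads for the longer and 645 for the shorter genes.

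FUS3 is the kinase that passes the α-factor signal to Ste12 and Far1. Its mean tail was 44.5, 43.8 and 44.7 nt in set1Δ at 75, 90 and 105 min and 43.7, 42.0 and 40.5 nt in WT. Early, at 0, 15 and 30 min, it was 27.6, 25.8 and 25.2 nt in set1Δ and 25.2, 25.9 and 30.3 nt in WT. Every late value exceeded every early one by more than 10 nt. The centred difference was 14.3 ± 0.90 nt (SE; limma adjusted p = 1.70e-10), 15.6 nt in set1Δ and 13.0 nt in WT. Between the windows the tail was 28.4 nt at 45 min and 39.0 nt at 60 min in set1Δ, and 27.4 and 33.7 nt in WT. At 120 min it was 32.0 nt in set1Δ and 46.3 nt in WT, and in the asynchronous cultures 29.1 and 30.8 nt. The FUS3 message itself averaged less late. In WT it was at 208, 202 and 133 CPM late against 996, 519 and 478 CPM early. In set1Δ it was at 57.6, 68.5 and 58.5 CPM late against 721, 61.5 and 60.1 CPM early. The set1Δ values at 15 and 30 min thus lay within the late range, and only that at 0 min was far above it. In set1Δ the level was thus already at 61.5 CPM at 15 min, when the tail was still 25.8 nt, and the tail reached 39.0 nt at 60 min with the level at 53.1 CPM. The early set1Δ values at 15 and 30 min rest on 97 and 30 poly(A) reads.

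The other members of the pheromone pathway were unequal. Of 26 pheromone response genes 9 passed the read minimum, and 3 of those 9 (33.3%) were longer late and 0 shorter, beside 9.58% and 8.03% over all tested genes, with a median of 4.00 nt against -0.21 nt over all tested genes. GPA1, the G protein α subunit that couples to the pheromone receptor, had tails of 38.2, 34.7 and 38.4 nt late in set1Δ and 40.4, 37.5 and 45.2 nt in WT. Early its tails were 30.0, 30.2 and 27.9 nt in set1Δ and 27.9, 28.9 and 31.4 nt in WT. The groups did not overlap, and the difference was 7.43 ± 1.13 nt (SE; limma adjusted p = 0.000156). FIG2, a cell wall adhesin of mating cells, had 37.9 ± 3.68 nt late and 30.2 ± 4.74 nt early (SD, n = 6 each; difference 5.40 nt, limma adjusted p = 0.0362), with overlapping groups; its adjusted p was 0.0615 on the log2 and 0.0628 on the ratio scale. AGA1, the anchor subunit of a-agglutinin, differed by 4.00 nt without passing (adjusted p = 0.119), and FAR1, the pheromone-induced inhibitor of the G1 cyclin kinase, by -1.29 nt (adjusted p = 0.408). These 2 and STE2 below were named after their values were seen. On read counts, 7 of the 26 genes were lower late and 0 higher, against a background of 9.58% lower among the 5032 genes tested for counts. Of the a-specific genes, which only cells of mating type a express, 4 were tested for tails and 0 were called. MFA1, which encodes a-factor, had a difference of 4.57 nt (adjusted p = 0.134), the second a-factor gene MFA2 of -0.86 nt (adjusted p = 0.430) and the α-factor receptor gene STE2 of 0.46 nt (adjusted p = 0.749).

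**Figure D3:**
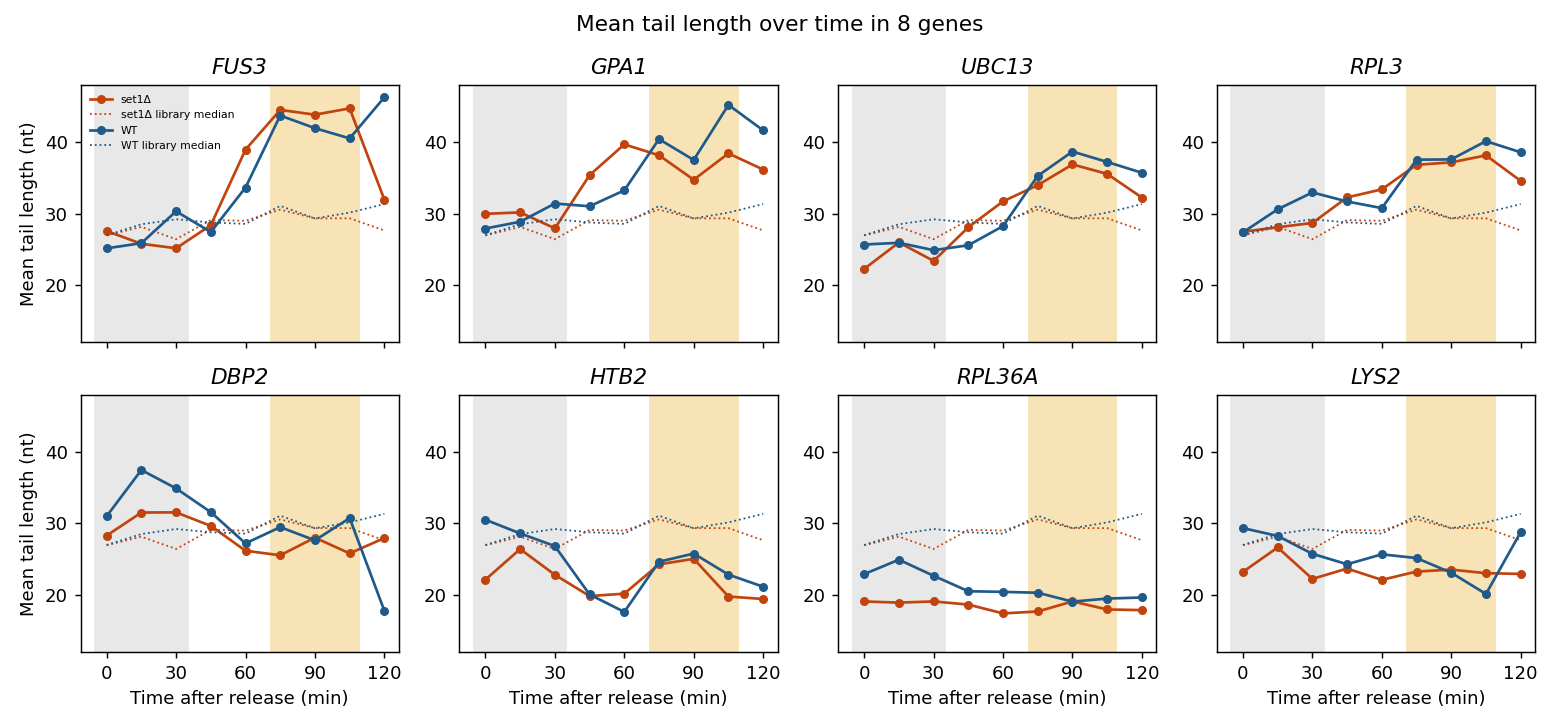
Mean tail length in nt (vertical axis) by time after release in min (horizontal axis) for 8 genes in set1Δ (orange) and WT (blue), 1 library per point; dotted lines are the library medians, grey marks the early and yellow the late window. FUS3 reaches 40.5 to 44.7 nt late against 25.2 to 30.3 nt early in both strains. GPA1, UBC13 and RPL3 also lie above their early values late. HTB2, RPL36A and LYS2 lie under the library median in all 6 late libraries and DBP2 in 5 of 6. Their mean distance from it, in that order, was -6.24, -11.0, -6.92 and -2.10 nt late, and -1.49, -6.44, -1.80 and 4.75 nt early.

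The other genes with the largest differences had various functions. UBC13, a ubiquitin-conjugating enzyme that makes lysine 63-linked chains in postreplication repair, had tails of 34.0, 36.9 and 35.6 nt late in set1Δ and 35.3, 38.7 and 37.2 nt in WT. Early it had 22.3, 26.0 and 23.4 nt in set1Δ and 25.7, 25.9 and 24.9 nt in WT, a raw difference of 11.6 nt and a centred one of 9.32 ± 1.00 nt (SE; limma adjusted p = 2.48e-06) with no overlap. DMA1, a ubiquitin ligase that helps to position the spindle and septins, had 42.7 ± 1.91 nt late and 31.8 ± 2.13 nt early (SD, n = 6 each), a raw difference of 10.8 nt and a centred one of 8.56 nt. SRB6, a subunit of the Mediator complex, differed by 8.31 nt, and EPO1, which links the cortical endoplasmic reticulum to sites of polarised growth, by 7.80 nt. PGM2, the main phosphoglucomutase, had 38.1 ± 2.36 nt late and 27.2 ± 5.20 nt early (SD, n = 6 each), with overlapping groups; its early values ranged from 20.3 to 35.4 nt, and leaving out 1 library brought its adjusted p to 0.0514. TBS1, a putative zinc-cluster protein, differed by 8.51 nt and the uncharacterised YHR033W by 8.23 nt. YNR025C, which matched no annotated gene, differed by 11.3 nt, and a joint feature of YCL042W and YCL040W by 8.34 nt. BRN1, a condensin subunit, had the largest difference of all tested genes, with 57.0 ± 5.99 nt late against 38.0 ± 2.22 nt early (SD, n = 6 each; 16.7 nt after centring, limma adjusted p = 1.49e-05), at only 68.9 poly(A) reads per library on average; it was named after its value was seen.

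DBP2 led the genes with shorter tails late. It encodes an RNA helicase that acts in transcription termination and ribosomal RNA maturation. Its tails were 25.6, 28.0 and 25.8 nt late in set1Δ and 29.5, 27.6 and 30.8 nt in WT, against 28.3, 31.5 and 31.6 nt early in set1Δ and 31.0, 37.5 and 34.9 nt early in WT. Within each strain every late value lay below every early one, and the centred groups did not overlap (-6.85 ± 0.94 nt, SE; limma adjusted p = 4.15e-05). DBP2 was also more abundant late, at 809 CPM on average against 467 CPM early (log2 fold change 0.88 ± 0.26, SE; edgeR adjusted p = 0.0321). LYS2, an enzyme of lysine synthesis, differed by -5.13 nt, ELO3, an elongase of very long fatty acids, by -4.91 nt, and PMI40, which makes mannose 6-phosphate, by -4.89 nt. HTB2, 1 of the genes for histone H2B, had 23.7 ± 2.17 nt late and 26.2 ± 3.25 nt early (SD, n = 6 each; -4.75 nt after centring, limma adjusted p = 0.00497). Its shortest tails in WT, 17.6 nt at 60 min, fell between the windows. SED1, a major cell wall protein, had 20.4 ± 1.76 nt late and 22.7 ± 2.28 nt early (SD, n = 6 each; -4.53 nt after centring), and only 5.39% of its late reads carried a tail, against 49.8% early. NEW1, a translation factor of the ABC family, differed by -4.57 nt, and its adjusted p reached 0.0562 on leaving out 1 library. TIF2, which encodes the helicase eIF4A, had 14.4 ± 1.11 nt late and 16.6 ± 0.77 nt early (SD, n = 6 each); it has a near-identical copy, TIF1, so its reads may be shared. The uncharacterised YLR157W-E differed by -4.49 nt.

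Cytosolic ribosomal protein genes made up much of the shorter side. Of 136 tested, 63 (46.3%) were shorter late and 17 (12.5%) longer after centring, beside 8.03% and 9.58% over all tested genes, but this direction depends on the centring: their raw median difference was 0.47 nt, and on the raw scale 33 were longer and 1 was shorter. In raw terms their tails were 27.1 nt late and 26.3 nt early at the median, so they gained less than the 2.05 nt of the median gene. For the large subunit 11 of 80 were longer and 35 shorter (median -1.66 nt), and for the small subunit 6 of 56 were longer and 28 shorter (median -1.90 nt). RPL36A, which encodes a large-subunit protein, had 17.7, 19.1 and 18.0 nt late in set1Δ and 20.3, 19.1 and 19.5 nt in WT, against 19.1, 18.9 and 19.1 nt early in set1Δ and 22.9, 24.9 and 22.7 nt early in WT (-4.59 ± 0.71 nt, SE; limma adjusted p = 0.000158). The WT tails carried most of that change, -5.83 nt against -3.36 nt in set1Δ, a strain difference that was not called.

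Some ribosomal protein genes had longer tails late on both scales, raw and centred. RPL3, whose protein lies at the peptidyl transferase center of the ribosome, is a single-copy gene and rests on 9270 poly(A) reads per library. Its tails were 36.8, 37.2 and 38.2 nt late in set1Δ and 37.5, 37.6 and 40.1 nt in WT, against 27.5, 28.1 and 28.7 nt early in set1Δ and 27.4, 30.6 and 33.0 nt early in WT. The groups did not overlap, and the difference was 6.44 ± 0.67 nt (SE; limma adjusted p = 2.48e-06). RPS7A had 27.1, 27.3 and 27.2 nt late in set1Δ and 28.2, 28.3 and 30.8 nt in WT, against 16.1, 19.4 and 20.1 nt early in set1Δ and 18.0, 19.8 and 23.0 nt early in WT (6.51 ± 0.75 nt, SE; limma adjusted p = 6.38e-06). Its copy RPS7B had 28.8 ± 1.47 nt late and 29.3 ± 2.56 nt early (SD, n = 6 each), a centred difference of -2.72 nt. The copies RPS7A and RPS7B thus averaged 28.1 and 28.8 nt late, and 19.4 and 29.3 nt early. RPS21B differed by 4.65 nt and RPL13B by 4.58 nt. Of 55 pairs of A and B copies with both members tested, 1 was longer in both, 12 were shorter in both and 3 were called in opposite directions: RPS7A against RPS7B, RPL19A (3.47 nt) against RPL19B (-2.89 nt), and RPS29B (4.29 nt) against RPS29A (-3.65 nt). Where copies are nearly identical the counting may have split reads between them, so values of single copies are uncertain. Of the 17 longer genes 7 had lower read counts late and 1 higher, and of the 63 shorter genes 27 (42.9%) had higher counts and 0 lower. The ribosomal protein genes without a tail call also had 17 of 56 (30.4%) higher and 0 lower, and over all tested genes 8.72% were higher and 14.8% lower.

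**Figure D4:**
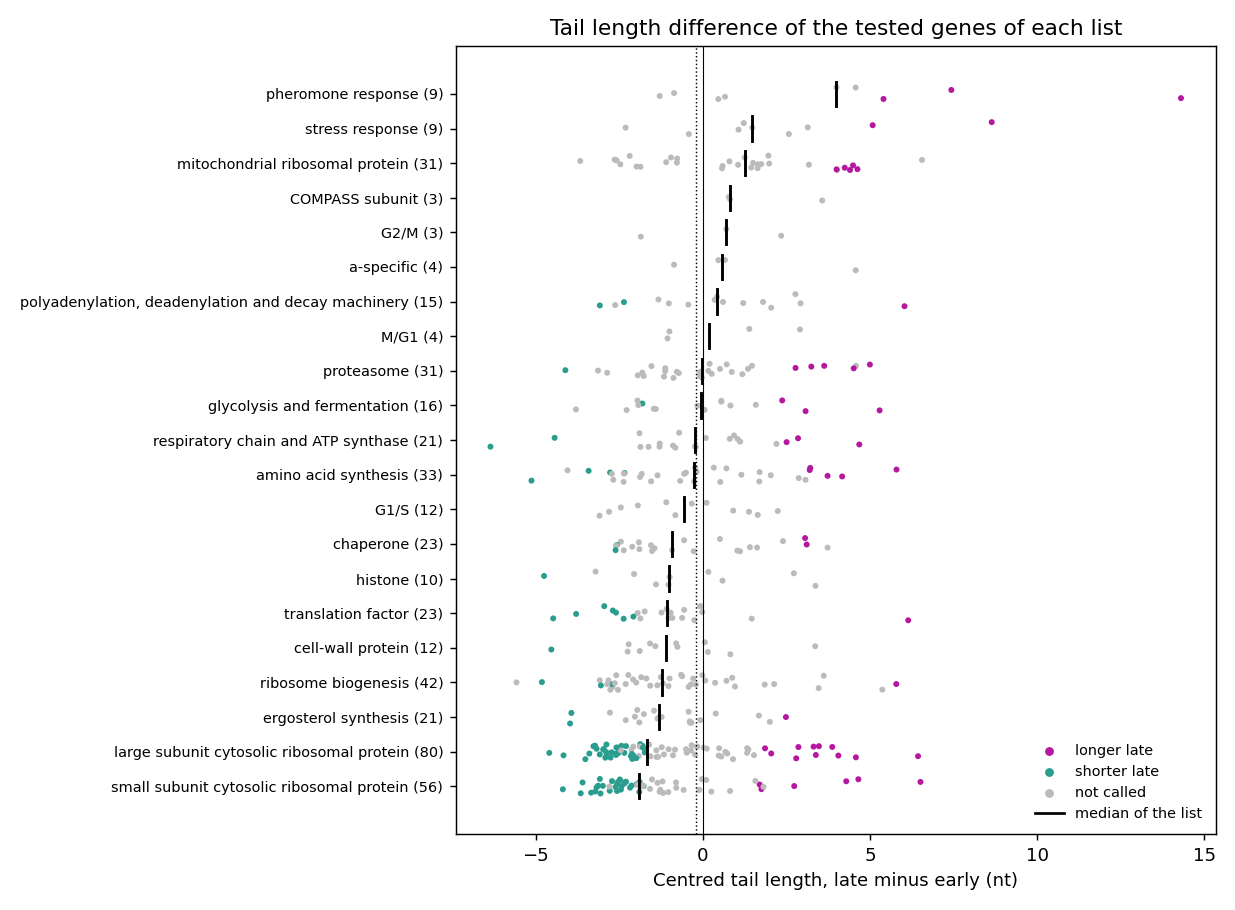
Centred tail length, late minus early, in nt for the tested genes of each list with at least 3 tested members, 1 point per gene, with the number tested in parentheses; black bars are list medians and the dotted line is the median of all 2203 genes at -0.21 nt. Pheromone response genes have the highest list median at 4.00 nt, and small-subunit and large-subunit ribosomal protein genes the lowest at -1.90 and -1.66 nt; without centring the last 2 medians are 0.36 and 0.60 nt.

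Genes around translation showed both directions. Of 23 translation factor genes 7 (30.4%) were shorter and 1 (4.35%) was longer late (median -1.08 nt after centring and 1.18 nt without), beside 8.03% and 9.58% over all tested genes. The 7 became 4 on the ratio scale and 4 without set1Δ at 75 min. EFB1, a guanine exchange factor for the elongation factor eEF1A, differed by -2.95 nt, HYP2 (eIF5A) by -2.69 nt and SUI3 (a subunit of eIF2) by -2.60 nt, the last with an adjusted p of 0.197 on the ratio scale. The exception was SUP35, the translation termination factor eRF3, at 36.2 ± 2.33 nt late and 27.8 ± 1.94 nt early (SD, n = 6 each; 6.14 nt, limma adjusted p = 0.000218); the groups did not overlap. Of 42 ribosome biogenesis genes 1 was longer, MAK16 (5.79 nt), a factor for the large subunit, and 3 were shorter, MAK21 (-4.81 nt), RRP5 (-3.05 nt) and the small nucleolar RNP protein GAR1 (-2.72 nt). On the ratio scale none of these 3 passed (adjusted p = 0.0802 for MAK21, 0.114 for RRP5 and 0.0938 for GAR1). Their list median was -1.22 nt. The list of mitochondrial ribosomal protein genes, whose messages are known Puf3 targets, was drawn by gene symbol. Its 31 tested genes of 72 had a median of 1.25 nt. Beside 9.58% longer and 8.03% shorter over all tested genes, 5 of these (16.1%) were longer, by 4.00 to 4.63 nt, and 0 shorter. The count moved with the processing: it was 1, MRPS16, on the log2 scale, 3 on the ratio scale, 2 without WT at 75 min, 3 without set1Δ at 0 min, and 2 to 6 over all fits without 1 library. MRPS16 had 34.9 ± 2.29 nt late and 28.4 ± 1.62 nt early (SD, n = 6 each). RML2, a mitochondrial ribosomal protein gene that the list leaves out, was also called longer, by 2.47 nt (limma adjusted p = 0.0405). Its adjusted p was 0.0756 on the log2 and 0.0585 on the ratio scale, and it was named after its values were seen. All 31 tested list members carried the Puf3 letters printed above in the window after the stop. In the annotation 71 of 73 did, against 14% of all coding genes, so the letters do not separate the 5 from the rest. Over all tested genes the letters occurred in 15.4%, in 16.7% of the longer and in 4.12% of the shorter genes. The median difference was 0.03 nt with the letters (327 genes) and -0.21 nt without them (1794 genes).

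In metabolism and protein turnover, single genes passed and most did not, and the counts of the lists, of a few genes each, stand beside 9.58% longer and 8.03% shorter over all tested genes. Of 16 glycolysis and fermentation genes 3 (18.8%) were longer and 1 (6.25%) shorter. ENO1 had 28.6 ± 2.84 nt late and 21.0 ± 1.93 nt early (SD, n = 6 each; 5.29 nt), while its near-identical copy ENO2 differed by -1.81 nt (adjusted p = 0.0362, but 0.0760 on the log2 and 0.0906 on the ratio scale), so reads of the enolase pair may be shared. TDH3, the main glyceraldehyde 3-phosphate dehydrogenase, differed by 3.07 nt after centring and 5.33 nt without, with a tail on 26.2% of its late reads and 60.0% of its early reads. The hexokinase gene HXK2 differed by 2.37 nt; its adjusted p was 0.0750 on the log2 scale and 0.0581 on the ratio scale. Of 31 proteasome genes 5 (16.1%) were longer and 1 (3.23%), RPN8, was shorter (-4.11 nt). PRE7, a subunit of the core particle, had 41.4 ± 0.60 nt late and 35.9 ± 1.32 nt early (SD, n = 6 each; 3.25 nt after centring, with an adjusted p of 0.107 on the log2 scale), and the lid subunit RPN5 differed by 5.00 nt. Of 33 amino acid synthesis genes 5 (15.2%) were longer, led by SER1 (5.79 nt), and 4 (12.1%) shorter, led by LYS2. Of 21 respiratory chain and ATP synthase genes 3 (14.3%) were longer and 2 (9.52%) shorter; ATP1, the α subunit of the synthase, differed by 2.85 nt and COX5A, a subunit of cytochrome c oxidase, differed by -6.35 nt. Of 21 ergosterol synthesis genes 1 (4.76%) was longer and 2 (9.52%), ERG13 (-3.93 nt) and ERG25 (-3.97 nt), were shorter. Of 9 stress response genes 2 (22.2%) were longer, PGM2 and the aldose reductase GRE3 (5.08 nt). Of 23 chaperone genes 2 (8.70%) were longer and 2 (8.70%) shorter, the shorter ones being SSC1 (-2.57 nt) and SSE1 (-2.61 nt), of the Hsp70 family; the adjusted p of SSE1 was 0.0720 on the log2 and 0.166 on the ratio scale.

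Few genes that run with the cell cycle could be tested, and with 17.6% of all tested genes called in either direction their counts are too small to set them apart. Of 12 tested G1/S genes 0 were called; the G1 cyclin gene CLN1 differed by -2.80 nt (adjusted p = 0.177) and the DNA ligase gene CDC9 by -1.94 nt (adjusted p = 0.284). Only 3 of 24 G2/M genes and 4 of 28 M/G1 genes had enough poly(A) reads, and 0 were called, with MOB1 at 2.34 nt, IQG1 at -1.85 nt, AMN1 at 2.91 nt and SUN4 at 1.39 nt. On read counts 8 of 19 tested G2/M genes were higher late, beside 7.99% of all genes. Of 10 histone genes HTB2 alone was called; HTA1, for histone H2A, differed by 3.37 nt (adjusted p = 0.0864). Of 12 cell-wall protein genes SED1 was called and CCW14 differed by -2.25 nt (adjusted p = 0.0741). Of 15 tested genes of the tail and decay machinery 1 was longer, PUF6 (6.03 nt), a repressor of ASH1 translation, and 2 were shorter, the 5′ exonuclease gene XRN1 (-3.08 nt) and PUB1 (-2.36 nt; adjusted p = 0.307 on the ratio scale), a poly(U)-binding protein. Of the COMPASS subunit genes 3 were tested and 0 called, with SWD3 at 3.57 nt and SPP1 at 0.81 nt. None of the 4 α-specific genes had enough reads.

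Tail and abundance ran in opposite directions. Of the 211 genes with longer tails 128 (60.7%) had lower read counts late and 3 higher, beside 14.8% lower and 8.72% higher over the 2203 tested genes, by edgeR's quasi-likelihood test at an adjusted p below 0.05. Of the 177 with shorter tails 46 (26.0%) had higher counts and 3 lower. Cytosolic ribosomal protein genes gave 27 of those 46. Among the 114 other shorter genes 19 (16.7%) were higher and 3 (2.63%) lower, beside 7.11% and 15.4% of all tested genes outside the ribosomal proteins. Counting only reads with a tail, 89 of the 211 were lower and 0 higher, and 48 of the 177 were higher and 2 lower. On such reads 260 genes were lower and 177 higher among the 4821 tested for them, a wider set than the 2203. Across genes the tail difference and the log2 fold change of counts had a Pearson r of -0.51 and a Spearman rho of -0.53 (n = 2203 genes, which share the same 12 libraries and the same reads). Taken from different libraries, the tail difference in set1Δ against the count change in WT gave -0.43 and -0.45, and the tail difference in WT against the count change in set1Δ gave -0.39 and -0.40. Tested genes were ordered by count change and split into 5 groups of equal size: in the group with the largest falls, with a median log2 fold change of -0.64, the median tail difference was 2.49 nt, 32.4% were longer and 0.68% shorter. In the group with the largest rises, at 0.52, the median was -1.65 nt, 1.82% were longer and 24.5% shorter. RPS7A is an example on the longer side, at 1413 CPM late and 3461 CPM early (log2 fold change -1.31 ± 0.20, SE; edgeR adjusted p = 0.000747). RPP1A, for an acidic stalk protein, is an exception: its count was higher late (log2 fold change 1.73) and its tail 1.86 nt longer; it was named after its values were seen. Fewer cells that express a gene and less RNA per cell cannot be told apart in these bulk samples.

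**Figure D5:**
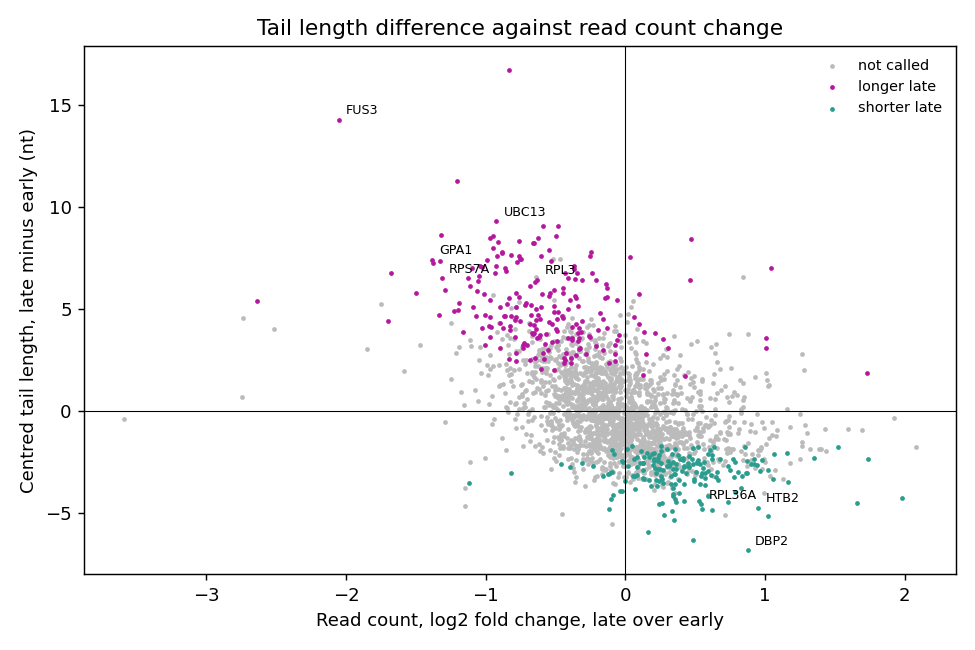
Centred tail length, late minus early, in nt (vertical axis) against the log2 fold change of read counts, late over early (horizontal axis), for 2203 genes, 1 point each, coloured by tail call. The cloud slopes downward (Pearson r -0.51). FUS3, GPA1, RPS7A and UBC13 lie upper left with longer tails and on average fewer reads late, and DBP2 and HTB2 lie lower right.

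The called genes differed in more than direction. The longer group had raw median tails of 36.3 nt late and 29.2 nt early, the shorter group 24.9 and 25.6 nt, and all tested genes 30.2 and 27.9 nt. Median coding lengths were 1170 bases for the longer and 598.5 bases for the shorter group, against 1119 bases over all tested genes. They rest on the genes with an annotated coding length, 204 longer, 170 shorter and 2121 in all. Leaving out the cytosolic ribosomal proteins, they were 1224 bases for longer, 927 bases for shorter and 1188 bases for uncalled genes with such a length. The median number of poly(A) reads was 174 for the longer and 645 for the shorter genes, against 135 over all tested genes and 123 for those not called. Small differences are easier to call in genes with many reads. The share of a gene's reads with a tail was lower late in both: 88.3% late and 96.1% early at the median for the longer genes, 71.7% and 84.7% for the shorter genes, and 80.4% and 90.4% for all tested genes. Among leading genes this share was 75.6% late and 97.1% early for FUS3, 74.1% and 95.4% for UBC13, and 39.1% and 68.9% for DBP2. It moved little for YNR025C (99.3% and 99.9%) and PGM2 (97.9% and 98.2%). Its part in the tail differences was not tested gene by gene.

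Libraries outside the comparison give the called genes at other times. In the longer genes the median centred tail in set1Δ was 1.49, 1.34 and 0.98 nt at 0, 15 and 30 min, 2.90 and 4.72 nt at 45 and 60 min, 6.10, 6.06 and 5.68 nt at 75, 90 and 105 min, and 4.59 nt at 120 min. In WT it was 1.49, 1.02 and 1.91 nt, then 2.55 and 3.26 nt, then 5.70, 6.09 and 8.23 nt, and 6.59 nt at 120 min. The values at 45, 60 and 120 min did not choose the genes, but the early values they are set against did, so a lean in the called direction is built in. Over all tested genes 45.3 to 52.2% lay above and 47.8 to 54.7% below their early mean in these 8 libraries. At 60 min 91.0% of the longer genes in set1Δ and 82.0% in WT lay above their early mean, and 89.6% and 92.6% at 120 min. In the asynchronous cultures 54.5% and 66.4% did, and their median tails there were 29.6 and 30.3 nt. The shorter genes lay below their early mean in 96.6% and 80.2% of cases at 60 min, in 93.8% and 96.0% at 120 min, and in 87.0% and 89.3% in the asynchronous cultures, with median centred tails of -3.10 and -3.42 nt. As these cultures were not synchronised, such shares do not date the change. In a fit of 45 and 60 min against early, 15 genes were longer and 21 shorter; FUS3 differed by 4.27 nt there (limma adjusted p = 0.463).

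The strains were compared by the interaction of strain and period over the same 2203 genes. No gene (0) passed an adjusted p below 0.05 with limma, 58 (2.63%) had an unadjusted p below 0.05, and the smallest adjusted p was 0.999. Across genes the tail difference in set1Δ and in WT had a Pearson r of 0.63 and a Spearman rho of 0.59 (n = 2203 genes, with 6 libraries on each side). With 3 libraries per strain and period a difference between strains of a few nt could go undetected, so the count of 0 does not show that the strains were alike. For FUS3 the change was 2.61 nt larger in set1Δ than in WT (limma adjusted p = 0.999).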

How the data were processed

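PAT-seq reads of 20 libraries were processed by the authors, and sacCer3, Bowtie and Bowtie2 2.2.5 appear in the submitters' processing notes with no role stated. The deposited tables hold raw read counts per feature, counts restricted to tailed reads, and the mean tail length in nt of the tailed reads. The counting tool and its strand setting are not stated in what was used here, so overlapping, antisense and paralogous genes are uncertain. Gene names came from RefSeq R64 by locus tag for 5788 of 6532 features; 71 tested features joined several genes and 11 had no match.

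Tails were tested with limma 3.58.1 (robust empirical Bayes, prior variance following log2 mean poly(A) reads) in R 4.3.3 on tail length minus the library median, with strain as covariate, keeping features with 20 or more tailed reads in each of the 12 libraries. Read counts were tested by edgeR 4.0.16 (quasi-likelihood, TMM) on 5032 genes averaging 10 or more counts. Adjusted p-values are Benjamini-Hochberg, called below 0.05. The library medians and tail shares were tested by exact permutation within strains. Up to 10 genes per direction with at least 100 poly(A) reads and the same sign in each strain, and up to 2 per gene list with the smallest p, are named; other genes were named after their values were seen. The comparison, members and gene lists were chosen with earlier results of these data known. Tested on simulated data, the tail fit on 2203 genes recovered 39% of changes of 3 nt and 85% of 6 nt, and the count fit on 4987 genes recovered 76% of log2 changes of 1 and 93% of 2. Depth ran from 476565 to 2413354 reads; the spread of tails within a library is unknown, so a mean from 20 reads is less certain than one from many. The alternatives cover the read minimum, scaling, weights, covariates, time points, strains and DESeq2 1.42.0.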

Additional observations from a re-analysis of the deposited data

Results flagged for a closer look

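Each named gene was examined for a library far from the 5 others of its period, by the gap to its nearest neighbour over the range, which chance alone passes in about 1 in 20 groups. Of 116 groups of 6 examined, 12 held such a library. All values below are centred tail lengths in nt.

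Among late libraries, LYS2 was low in WT at 105 min at -10.0, against -7.29 to -5.80 in the others. ELO3 was low in set1Δ at 105 min at -4.06, against -1.24 to 0.38. ERG13 was low in the same library at -6.25, against -3.64 to -2.47. MFA1 was low in set1Δ at 90 min at 1.07, against 6.30 to 7.75, and GLN1 in that library at -0.87, against 2.17 to 3.51. MAK16 was low in WT at 75 min at 3.95, against 7.09 to 8.96. In WT at 105 min ATP1 was high at -0.58, against -4.33 to -3.29, and PUF6 was high at 8.22, against 5.64 to 6.27.

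Among early libraries, YNR025C was high in WT at 30 min at 7.92, against 3.64 to 4.96. PRE7 was high in set1Δ at 0 min at 10.3, against 7.31 to 8.28. COX5A was high in WT at 0 min at 8.96, against -2.18 to 0.16, and PUF6 was low there at -1.97, against 0.29 to 1.45.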

How the results depend on the processing

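Scaling and tail share moved the counts of called genes most. Without centring 662 genes were longer and 4 shorter; with tail share as a covariate 2 and 3 were; without a trend of the prior variance 108 were shorter; and at 45 and 60 min against early 15 were longer and 21 shorter. In WT alone 106 were longer and 33 shorter, and in set1Δ alone 46 and 4, with fewer samples. Without 30 min 117 genes were shorter, without 75 min 85, and without both 30 and 105 min, an alternative chosen after seeing the data, 106. Leaving out single libraries left 173 to 202 longer and 124 to 169 shorter genes, and a strain difference in 0 genes throughout. NEW1 lost its call in 3 and PGM2 in 1 of 12 such fits. The library median differed by 1.95 nt in WT alone and 2.57 nt in set1Δ alone, and the tail share by -22.8 and -18.8 points (exact permutation p = 0.1 each, the smallest that 3 against 3 allows); without single libraries they ran from 1.95 to 2.50 nt and from -23.5 to -18.2 points. Read counts gave 177 higher and 260 lower genes on poly(A) reads, 155 and 163 in WT alone, 70 and 45 in set1Δ alone, 204 and 252 without 30 and 105 min, and 293 to 439 and 326 to 477 without single libraries.

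Signs turned for genes that were not called: without centring CDC9 (0.32 nt), IQG1 (0.40), MFA2 (1.40) and CCW14 (0.010); with tail share MOB1 (-2.77); with 120 min added MFA2 (0.59); on leaving out single time points MFA2 (from -1.43 to 0.069); in set1Δ alone SPP1 (-3.22). At 45 and 60 min HTA1 (-3.47), MFA2 (2.33), SWD3 (-0.42) and SPP1 (-2.28) turned, as did SUP35 (-0.40), which is called late. The cause was not tested. Samples of the 2 strains at 1 time correlated by 0.03 to 0.20 in their deviations, over 0.1 at 4 of 6 time points, and 11 of 12 libraries correlated best with their own time point in the other strain, a hint of pairing from the data and not the design; with time point as a replicate block 172 genes were longer and 134 shorter, and on counts 344 were higher and 350 lower. The strain difference with the replicate block was called in 0 genes.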
